A study of Mus musculus with 6 samples.

Results

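The genes described here are 10 genes that move iron and heme: Trf, Tfrc, Slc11a1, Slc11a2, Steap4, Slc40a1, Fth1, Hpx, Hmox1 and Blvrb. They were taken by name, and the probeset with 1 symbol and the highest mean over all arrays stood for each gene. A probeset is the group of array probes that is summarized to 1 value. Of the 10 genes, 9 were measured, out of 19937 genes in the whole table, and each of the 9 had 1 probeset. Slc11a1, an iron transporter of the phagosome membrane, is not analysed here because no probeset carried its symbol alone.

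GWAT (gonadal white adipose tissue) came from chow-fed male mice aged 4 months. One group was ob/ob and the other was ob/ob/Fsp27-/-, with 3 arrays per genotype. Both groups lack leptin, and the second also lacks Fsp27, a lipid droplet protein encoded by Cidec, in the whole body. Per the study's methods, each array received RNA pooled from several mice, whereas the labels give 1 number per array, so n counts arrays and how far single mice differed cannot be seen. The values are deposited RMA values (Robust Multi-array Average, log2 scale, quantile normalized between arrays), and a difference of 1 is a 2-fold change. The genotypes were compared with limma, with Benjamini-Hochberg adjustment over all probesets that carry a gene symbol. Calls are given for ob/ob/Fsp27-/- relative to ob/ob mice, and need both an adjusted p under 0.05 and a difference of 0.5 or more on the log2 scale.

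Cells take up iron bound to transferrin through the transferrin receptor. A reductase and a transporter then pass it from the endosome to the cytosol. Spare iron is stored in ferritin, and ferroportin is the only known route by which cells export it. Heme is built in steps that begin and end in mitochondria, and heme oxygenase opens its ring, which frees iron, carbon monoxide and biliverdin. In adipose tissue, macrophages that clear dying cells take part in this recycling, while adipocytes secrete the hemoglobin scavenger haptoglobin.

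Across all genes, 20.4% were called, 9.58% higher and 10.8% lower, and for 46.0% the 3 arrays of one genotype did not overlap the 3 of the other. When the arrays were centred on housekeeping genes, 2820 genes were higher and 1674 lower, against 1910 and 2158 in the deposited scaling. The 11 measured housekeeping genes themselves had a median log2 fold change of −0.22, with 1 called lower. This centring therefore raises the difference of every gene. Adipocyte markers were present in every array, with 8 of 11 measured markers higher in ob/ob/Fsp27-/- mice and 0 lower. The Cidec probeset read 11.49, 11.78 and 11.98 in ob/ob and 11.34, 11.51 and 11.53 in ob/ob/Fsp27-/- mice (log2 fold change −0.29, adjusted p = 0.157 from limma). The place of its probes in the gene is not given, so this value does not check the genotype labels. In bulk tissue, fewer cells of a type and less RNA per cell cannot be told apart.

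Among the 9 measured genes, 1 was called higher, 1 was called lower and 7 were not called. These calls are 11.1% in each direction, near the 9.58% of all genes called higher and the 10.8% called lower. Trf rose and Hmox1 fell in ob/ob/Fsp27-/- mice. The median log2 fold change of the 9 genes was −0.20, beside 0.058 over all genes. The genotypes did not overlap for 4 of the 9, Trf on the higher side and Hmox1, Fth1 and Blvrb on the lower side, where 46.0% of all genes did not overlap, 25.3% on the higher and 20.7% on the lower side.

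**Figure D1:**
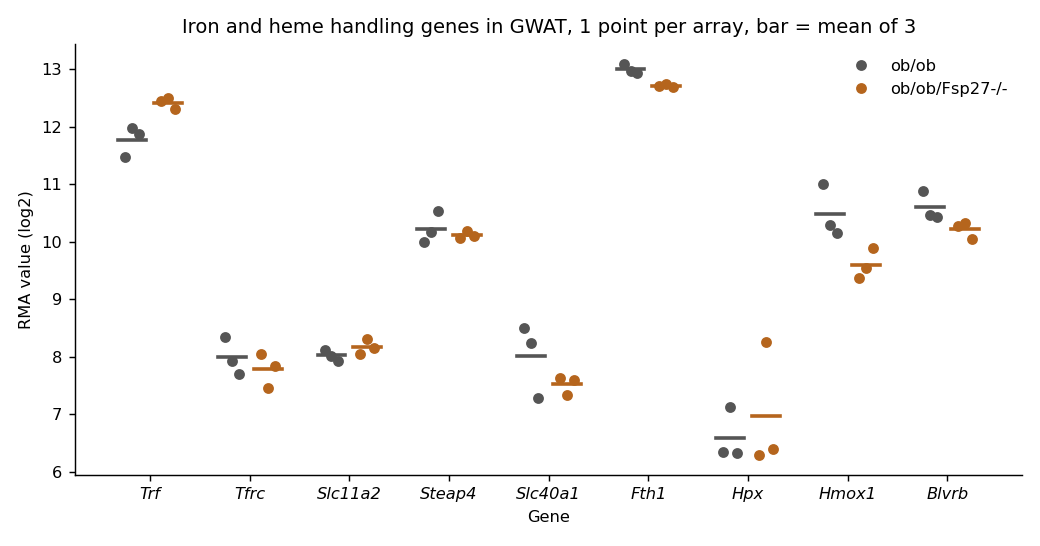
RMA values (log2, vertical axis) of the 9 measured genes, with 1 point per array and a bar at the mean of 3 arrays per genotype. Trf lies higher and Hmox1, Fth1 and Blvrb lie lower in all 3 ob/ob/Fsp27-/- arrays, and Hpx stands high in 1 array of each genotype. Heights compare the genotypes within a gene and not 1 gene with another.

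Iron supply was represented by 4 genes, of which Trf was called. Trf encodes transferrin, the protein that carries iron in blood and tissue fluid. It read 11.47, 11.97 and 11.87 in ob/ob and 12.45, 12.49 and 12.32 in ob/ob/Fsp27-/- mice. Every ob/ob/Fsp27-/- array lay above every ob/ob array, and ob/ob array 1 was the lowest. The means were 11.77 ± 0.263 (SD, n = 3) and 12.42 ± 0.093 (SD, n = 3), a log2 fold change of 0.65 (SE 0.139, adjusted p = 0.0119 from limma) or 1.57-fold. Of all genes, 7.5% rose by more. The adipocyte markers had a mean of 10.56, 11.06 and 11.35 in the ob/ob arrays and of 11.88, 11.92 and 11.94 in the ob/ob/Fsp27-/- arrays, and their part in the rise of Trf was not tested. Within each genotype Trf was highest in array 2, where hepatocyte markers, described with Hpx below, were also highest. The mean of those markers was 6.01, 7.77 and 6.42 in ob/ob and 5.72, 7.75 and 5.85 in ob/ob/Fsp27-/- mice. Their part in Trf was not tested. Without array 2 of both genotypes the difference of Trf was 0.71. The 3 genes whose centred values over the 6 arrays lay closest to those of Trf were Lrtm1, Selenbp1 and Rhobtb1, at Euclidean distances of 0.159, 0.161 and 0.161.

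The genes that bring transferrin iron into the cell were not called. Tfrc, the transferrin receptor, ranged from 7.69 to 8.35 in ob/ob and from 7.47 to 8.05 in ob/ob/Fsp27-/- mice. Its log2 fold change was −0.20 (95% confidence interval −0.69 to 0.28, adjusted p = 0.510 from limma). Leaving out ob/ob array 1 gave −0.024, leaving out ob/ob array 3 gave −0.35, and leaving out array 2 of the ob/ob/Fsp27-/- mice gave −0.044. Slc11a2 encodes DMT1, which carries ferrous iron across the gut and endosome membrane, and it changed by 0.15 on the log2 scale (95% confidence interval −0.08 to 0.37, adjusted p = 0.313), or by 0.076 without ob/ob/Fsp27-/- array 2. Steap4, a metalloreductase abundant in adipocytes, changed by −0.11 (95% confidence interval −0.45 to 0.22, adjusted p = 0.607). The genotypes overlapped for all 3 genes. Steap4 was highest in ob/ob array 3, at 10.54, and without that array its difference was 0.042.

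Slc40a1 encodes ferroportin, the iron exporter. It read 8.49, 8.24 and 7.29 in ob/ob and 7.64, 7.34 and 7.60 in ob/ob/Fsp27-/- mice. Array 3 of ob/ob mice lay below all ob/ob/Fsp27-/- arrays, while the other two ob/ob arrays lay above them. The log2 fold change was −0.48 (SE 0.292, 95% confidence interval −1.17 to 0.21, adjusted p = 0.274 from limma). Without ob/ob array 3 it was −0.84 and called (adjusted p = 0.00587), and without ob/ob array 1 it was −0.24 (adjusted p = 0.588).

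Fth1, the heavy chain of ferritin that oxidizes iron for storage, read 13.10, 12.97 and 12.93 in ob/ob and 12.71, 12.74 and 12.70 in ob/ob/Fsp27-/- mice. The genotypes did not overlap, and the spread within each was small. The log2 fold change was −0.28 (SE 0.0793, 95% confidence interval −0.47 to −0.09, adjusted p = 0.0353 from limma), which passed on p but stayed under the fold threshold, so the gene was not called. Over all alternatives its adjusted p from limma ran from 0.0223 to 0.206, the highest with housekeeping centring, where its difference was −0.14. Ferritin genes have near-identical copies in the genome, so the value of Fth1 is uncertain too. Its values lay near the top of the scale, whose highest value was 13.57.

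Hpx encodes hemopexin, a plasma protein made mainly by the liver that binds free heme. Its probeset read 6.34, 7.13 and 6.32 in ob/ob and 6.29, 8.25 and 6.39 in ob/ob/Fsp27-/- mice. Array 2 stood highest in each genotype, and the other arrays of both genotypes lay within a narrow range. The log2 fold change was 0.38 (SE 0.522, 95% confidence interval −0.85 to 1.61, adjusted p = 0.634 from limma). It was −0.26 without ob/ob/Fsp27-/- array 2 and 0.0077 without array 2 of both genotypes.

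Hepatocyte markers were high in the same arrays. All 8 listed hepatocyte markers were highest in array 2 of each genotype, and their mean was 6.01, 7.77 and 6.42 in ob/ob and 5.72, 7.75 and 5.85 in ob/ob/Fsp27-/- mice. Alb, which encodes serum albumin, read 9.0, 11.55 and 9.73 in ob/ob and 7.93, 11.17 and 8.45 in ob/ob/Fsp27-/- mice. Of these markers, 0 were called in either direction. The part of these markers in the values of Hpx was not tested.

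**Figure D2:**
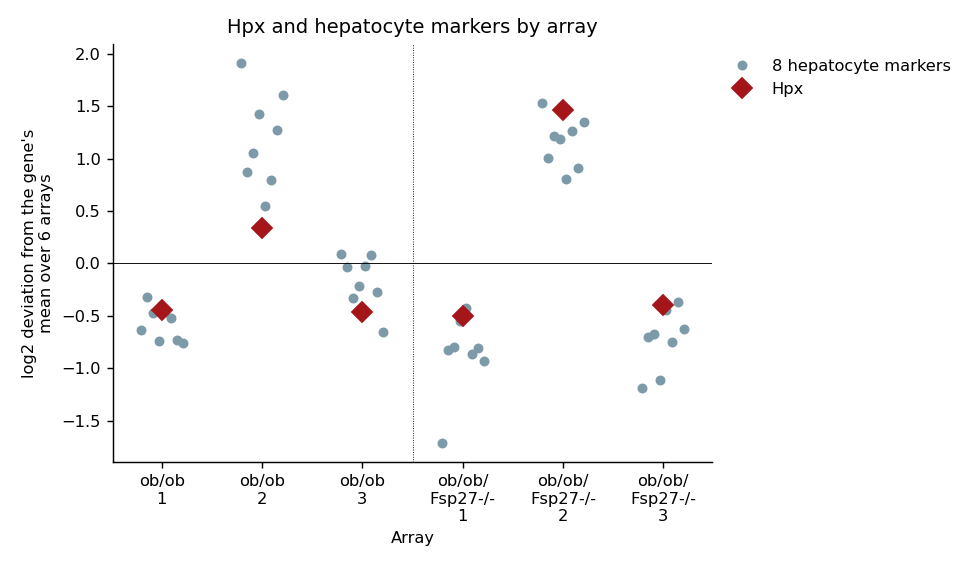
Deviation of each gene from its own mean over the 6 arrays (log2, vertical axis) for Hpx (diamonds) and 8 hepatocyte markers (circles), by array (horizontal axis). Array 2 of each genotype holds the highest value of Hpx and of all 8 markers.

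The stretch before the Hpx start is shown because, of the 6 listed genes with a promoter entry, it was the only one with a match to TGACNNNGC. These are the letters of the antioxidant response element, which Nrf2 and Bach1 bind with small Maf partners. Both strands of the 250 bases before the outermost start of each gene were searched in the RefSeq promoters of build GRCm38.p6. The motif was held by 10.1% of 27025 promoters. The Hpx window is chr7:105600117-105600366 on the minus strand, and capitals mark the match, 95 to 87 bases before the start.
Hpx: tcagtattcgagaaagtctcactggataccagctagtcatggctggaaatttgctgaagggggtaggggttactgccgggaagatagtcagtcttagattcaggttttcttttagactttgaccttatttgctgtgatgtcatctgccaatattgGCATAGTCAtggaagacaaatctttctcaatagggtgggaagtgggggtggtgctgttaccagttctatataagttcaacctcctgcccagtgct

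All 4 measured genes of heme breakdown lay lower in ob/ob/Fsp27-/- mice. Hmox1 encodes heme oxygenase 1, the inducible enzyme that opens the heme ring. It read 11.00, 10.30 and 10.15 in ob/ob and 9.37, 9.54 and 9.89 in ob/ob/Fsp27-/- mice. The genotypes did not overlap, and ob/ob array 1 stood highest. The means were 10.48 ± 0.452 (SD, n = 3) and 9.60 ± 0.262 (SD, n = 3), a log2 fold change of −0.88 (SE 0.236, adjusted p = 0.0290 from limma) or 1.84-fold lower. Of all genes, 5.82% fell by more. The call was lost when ob/ob array 2 was left out (log2 fold change −0.97, adjusted p = 0.0551), and likewise for ob/ob/Fsp27-/- array 1 (−0.77, adjusted p = 0.0808) and array 2 (−0.85, adjusted p = 0.0947), and over all alternatives the adjusted p ran from 0.0166 to 0.164. The genes closest to Hmox1 in their centred values over the 6 arrays were Trim29, Mmp19 and Adgre5, at Euclidean distances of 0.249, 0.264 and 0.323.

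Blvrb encodes a flavin reductase that also reduces the beta isomer of biliverdin. It read 10.89, 10.46 and 10.44 in ob/ob and 10.27, 10.33 and 10.05 in ob/ob/Fsp27-/- mice. The genotypes did not overlap, but the gap between 10.44 and 10.33 was narrow. The log2 fold change was −0.38 (SE 0.144, 95% confidence interval −0.72 to −0.04, adjusted p = 0.0934 from limma), and the gene was not called. Without ob/ob array 1 it was −0.23 (adjusted p = 0.207).

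Both other genes of heme breakdown were also lower in every ob/ob/Fsp27-/- array. Blvra, the main biliverdin reductase, read 9.26, 9.16 and 9.07 in ob/ob and 8.13, 8.51 and 8.51 in ob/ob/Fsp27-/- mice. It was called lower, with a log2 fold change of −0.78 (SE 0.124, adjusted p = 0.00356). Hmox2, the constitutive heme oxygenase, differed by −0.39 (SE 0.105, adjusted p = 0.0279), under the fold threshold. In this list 2 of 4 genes were called lower and 0 higher, where 10.8% of all genes were called lower, and 4 of 4 did not overlap on the lower side, where 20.7% of all genes did not. The list median was −0.59 on the log2 scale.

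The stretches before the starts of both biliverdin reductases are shown side by side, since Blvra was called and Blvrb was not. The Blvra window, chr2:127070407-127070656 on the plus strand, holds TGACNNNGC 49 to 41 bases before the start, in capitals. The Blvrb window, chr7:27447728-27447977 on the plus strand, has no match to any of the 4 motifs searched, which were TGACNNNGC, the E-box CACGTG, the hypoxia element core ACGTG and the core of the PU.1 site, GAGGAA. Both come from RefSeq, GRCm38.p6. The Hmox2 window holds no TGACNNNGC either, though Hmox2 was lower in every ob/ob/Fsp27-/- array, and Hmox1 has no promoter entry. A link between the motif and the calls was not tested.
Blvra: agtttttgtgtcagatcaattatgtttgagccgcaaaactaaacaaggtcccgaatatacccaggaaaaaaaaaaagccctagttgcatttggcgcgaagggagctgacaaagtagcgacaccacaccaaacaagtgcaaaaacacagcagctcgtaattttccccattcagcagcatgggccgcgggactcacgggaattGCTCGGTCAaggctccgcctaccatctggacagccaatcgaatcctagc
Blvrb: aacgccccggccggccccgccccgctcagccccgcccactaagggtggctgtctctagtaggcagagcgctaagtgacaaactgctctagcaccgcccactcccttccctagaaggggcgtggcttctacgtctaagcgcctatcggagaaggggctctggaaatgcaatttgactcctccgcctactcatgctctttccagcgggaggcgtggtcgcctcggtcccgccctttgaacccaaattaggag

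Macrophage markers also fell. All 16 of 16 listed markers were called lower in ob/ob/Fsp27-/- mice, where 10.8% of all genes were, and the median of their log2 fold changes was −2.07. Their mean ranged from 10.30 to 10.49 in the ob/ob arrays and from 8.09 to 8.29 in the ob/ob/Fsp27-/- arrays. Adgre1, which encodes the surface marker F4/80, changed by −3.21 (SE 0.0756, adjusted p = 7.82e-06 from limma). Within ob/ob mice, array 1 was the highest for the marker mean and for 6 of the 9 genes, namely Hmox1, Slc40a1, Blvrb, Fth1, Tfrc and Slc11a2, while Trf and Steap4 were lowest there. The part of these markers in the levels of the iron and heme genes was not tested. Cd163, the hemoglobin scavenger receptor of macrophages, differed by −0.23 and was not called (SE 0.242, adjusted p = 0.521).

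**Figure D3:**
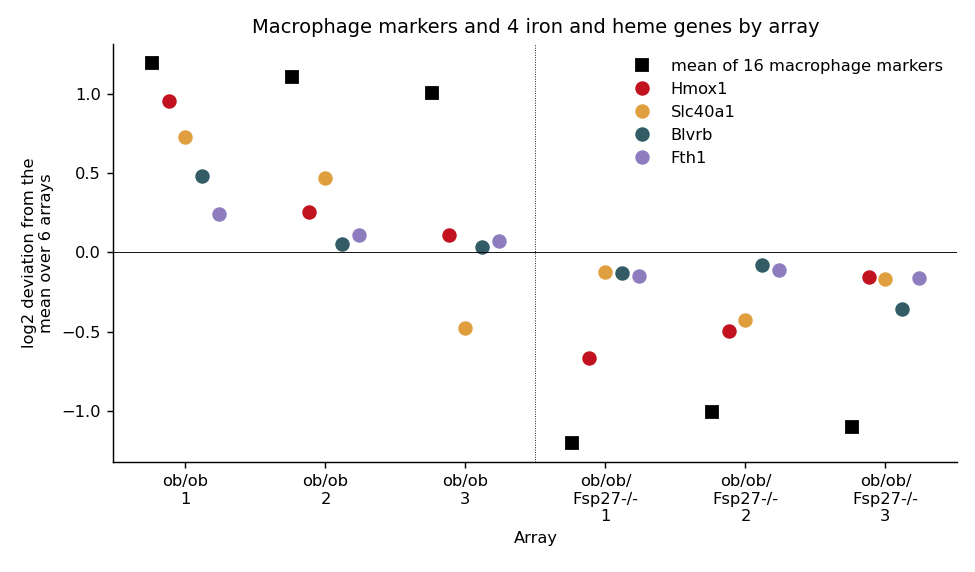
Deviation from the mean over the 6 arrays (log2, vertical axis) for the mean of 16 macrophage markers (squares) and for the 4 genes with the largest negative differences, Hmox1, Slc40a1, Blvrb and Fth1 (circles), by array (horizontal axis). The marker mean spans more than 2 log2 units between the genotypes, and the 4 genes span less.

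The wider iron and heme pathway was described with 8 lists of 88 genes, the 10 genes included, of which 81 were measured. In ob/ob/Fsp27-/- mice, 25 of them (30.9%) were called higher, where 9.58% of all genes were, and 7 (8.64%) were called lower, where 10.8% of all genes were. The lists were chosen with earlier results of these data known, so these shares are not an independent result. The mean value of 14 of the 81 genes lay below the median tested probeset, against 9904 of all 19937 genes. With a filter at the median, 1815 of 11332 genes were called higher and 1941 lower. The median log2 fold change of the 81 genes was 0.21, beside 0.058 over all genes. The higher calls lay mostly in the mitochondrial list and in heme synthesis. Without array 2 of both genotypes, which leaves 2 arrays each, 12 were higher and 5 lower.

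**Figure D4:**
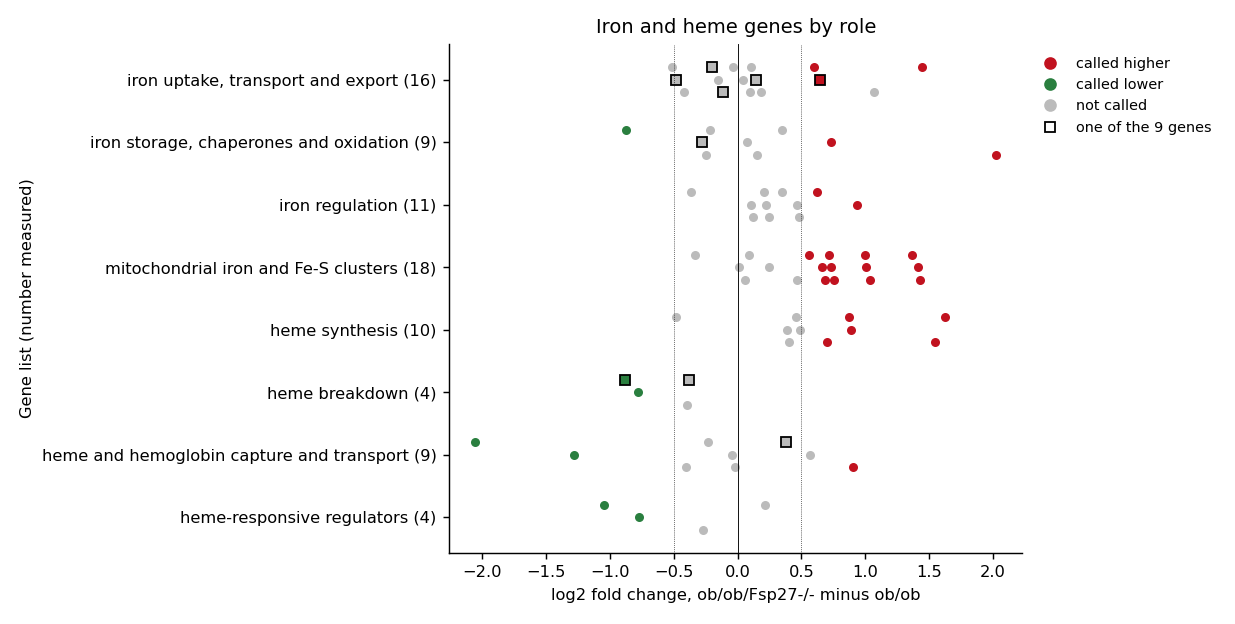
Log2 fold change (ob/ob/Fsp27-/- minus ob/ob, horizontal axis) of each measured gene in 8 iron and heme lists (vertical axis), with 1 point per gene and squares for the 9 measured genes described first. Dotted lines mark the fold threshold of 0.5 in each direction. Mitochondrial and heme synthesis genes lie mostly to the right, and all 4 heme breakdown genes lie to the left.

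In the list of iron uptake, transport and export, 3 of 16 measured genes (18.8%) were called higher and 0 lower. The called genes were Trf, Tfr2 and Slc22a17. Of all genes, 9.58% were called higher and 10.8% lower. Tfr2, the transferrin receptor that senses iron load in liver and erythroid cells, read 5.64, 6.08 and 6.26 in ob/ob and 7.03, 7.83 and 7.46 in ob/ob/Fsp27-/- mice, which gives a log2 fold change of 1.45 (SE 0.232, adjusted p = 0.00358). Its ob/ob values lay around the array medians of 6.02 to 6.10, where signal over background is low. Slc22a17, a receptor for lipocalin 2, rose by 0.60 (adjusted p = 0.0274), but this call was lost when any array other than ob/ob array 3 and ob/ob/Fsp27-/- array 3 was left out, with adjusted p from 0.0546 to 0.0907. Lcn2, which encodes the siderophore carrier lipocalin 2, differed by 1.07 and was not called (SE 0.471, adjusted p = 0.140).

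Iron storage and oxidation held calls in both directions, 2 higher (22.2%) and 1 lower (11.1%) among 9 genes. The shares of all genes were 9.58% and 10.8%. Hephl1, a copper ferroxidase related to hephaestin, read 5.24, 5.78 and 6.56 in ob/ob and 7.47, 8.0 and 8.19 in ob/ob/Fsp27-/- mice, which gives a log2 fold change of 2.03 (SE 0.337, adjusted p = 0.00424). Its ob/ob values lay around the array medians of 6.02 to 6.10, where signal over background is low. Heph, hephaestin itself, rose by 0.73 (SE 0.219, adjusted p = 0.0441). That call was lost with all probesets tested (adjusted p = 0.0664 from limma) and when any array other than ob/ob array 3 was left out. Without ob/ob array 1 its difference was 0.46, under the fold threshold, and without the others the adjusted p was 0.073 to 0.113. Ftl1, the ferritin light chain, read 10.12, 9.82 and 9.44 in ob/ob and 8.94, 8.52 and 9.30 in ob/ob/Fsp27-/- mice. Its log2 fold change was −0.87 (SE 0.234, adjusted p = 0.0289). The Ftl1 call was lost without ob/ob array 1 or 2 (adjusted p = 0.0797 and 0.0883) and without ob/ob/Fsp27-/- array 1 or 2 (0.0629 and 0.0846). Ferritin genes have near-identical copies in the genome, and other probesets carry Ftl1 together with further symbols, so its value is uncertain.

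Of 11 genes of iron regulation, 2 (18.2%) were called higher and 0 lower, where 9.58% of all genes were higher and 10.8% lower. With housekeeping centring 4 were higher, Aco1 (0.60, adjusted p = 0.0070) and Neo1 (0.62, adjusted p = 0.0332) being added. Bmp6, a growth factor that raises hepcidin in liver, read 7.45, 7.73 and 7.67 in ob/ob and 8.37, 8.63 and 8.67 in ob/ob/Fsp27-/- mice, which gives a log2 fold change of 0.94 (SE 0.116, adjusted p = 0.00123). Hfe, the gene mutated in a common iron overload disease, rose by 0.62 (adjusted p = 0.0425), and its call was lost when any array other than ob/ob array 3 was left out (adjusted p from 0.0573 to 0.127). With all probesets tested its adjusted p from limma was 0.0640, which left 1 gene of the list called. The iron regulatory proteins, which bind ferritin and transferrin receptor mRNA when iron is low, were not called. Aco1 differed by 0.46 (adjusted p = 0.0169), and was called at 0.54 without ob/ob array 3 and at 0.53 without ob/ob/Fsp27-/- array 2. Ireb2 differed by −0.37 (adjusted p = 0.0541).

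Mitochondrial iron and iron-sulfur cluster genes were called higher in 12 of 18 measured cases (66.7%) and lower in 0, with a median log2 fold change of 0.70. Of all genes, 9.58% were called higher and 10.8% lower. Without array 2 of both genotypes, 6 of 18 were called higher. The list mean was 8.04, 8.12 and 8.27 in ob/ob and 8.70, 8.84 and 8.87 in ob/ob/Fsp27-/- mice. The adipocyte markers, at 10.56, 11.06 and 11.35 in ob/ob and 11.88, 11.92 and 11.94 in ob/ob/Fsp27-/- mice, ranked the arrays in the same order, and their part in this list was not tested. Assembly begins with the sulfur donor Nfs1 and the scaffold Iscu, which rose by 0.72 (SE 0.123, adjusted p = 0.00474) and 0.69 (SE 0.114, adjusted p = 0.00417). Glrx5, a glutaredoxin that takes the new cluster from the scaffold, rose by 1.43 (SE 0.135, adjusted p = 0.000387). Its arrays read 8.53, 8.79 and 9.0 in ob/ob and 10.05, 10.29 and 10.26 in ob/ob/Fsp27-/- mice. The chaperone Hspa9 rose by 1.04 and the late assembly factors Isca1, Isca2, Bola3 and Nfu1 by 1.0, 0.66, 1.42 and 0.56. Cisd1, an outer membrane protein that carries a cluster, rose by 1.37 (SE 0.164, adjusted p = 0.00107). The ferredoxin Fdx1 rose by 0.75, and the inner membrane transporters Abcb8 and Abcb10 by 1.0 and 0.73. In ob/ob mice Fdx1 (6.22 to 6.29) and Abcb10 (6.37 to 6.64) lay not far above the array medians of 6.02 to 6.10. Signal over background is low there. Not called were, among others, Slc25a37 and Slc25a28, the mitoferrins that bring iron into mitochondria, at −0.34 and 0.06. Nfu1 has 2 probesets, and with their mean its difference was 0.41 and under the fold threshold.

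Heme synthesis was called higher in 5 of 10 measured genes (50%) and lower in 0, with a median log2 fold change of 0.60. Of all genes, 9.58% were called higher and 10.8% lower. The count called higher was 8 of 10 with housekeeping centring, 7 without ob/ob/Fsp27-/- array 1 or array 2 and 4 without array 2 of both genotypes. Alas1, the rate-limiting enzyme outside red cells, read 10.74, 10.45 and 10.61 in ob/ob and 11.46, 11.38 and 11.59 in ob/ob/Fsp27-/- mice, which gives a log2 fold change of 0.88 (SE 0.103, adjusted p = 0.000998). Alad, the second enzyme, read 9.42, 9.82 and 9.82 in ob/ob and 11.35, 11.21 and 11.16 in ob/ob/Fsp27-/- mice, which gives a log2 fold change of 1.55 (SE 0.129, adjusted p = 0.000253). Urod, which trims the side chains of the porphyrin, rose by 0.89 (SE 0.118, adjusted p = 0.00165). Tmem14c, a mitochondrial protein that passes the heme precursor inward, rose by 0.70 (SE 0.127, adjusted p = 0.00607).

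The later enzymes of heme synthesis lay under the fold threshold. With housekeeping centring Fech (0.63), Ppox (0.60) and the porphyrin transporter Abcb6 (0.52) were called higher. Fech, which inserts iron into the ring, differed by 0.49 (adjusted p = 0.0135), and was called at 0.54 without ob/ob/Fsp27-/- array 1 or array 2. Ppox differed by 0.46 (adjusted p = 0.0268), and was called at 0.51 without ob/ob array 1 and at 0.55 both without ob/ob/Fsp27-/- array 2 and with array weights. Cpox was the only enzyme of the list with a negative difference, −0.48 (SE 0.078, adjusted p = 0.00377), and it was called lower after cyclic loess (−0.50) and when either ob/ob/Fsp27-/- array 3 (−0.52) or ob/ob array 1 (−0.51) was left out.

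Alas2, the enzyme of the same first step in red cells, read 5.97, 6.32 and 6.36 in ob/ob and 7.40, 7.81 and 8.32 in ob/ob/Fsp27-/- mice, which gives a log2 fold change of 1.63 (SE 0.230, adjusted p = 0.00212). The ob/ob values of Alas2 lay near the array medians of 6.02 to 6.10, where signal over background is low. Hemoglobin signals moved with Alas2. The 4 probesets that carry several hemoglobin symbols each, and so name no single gene, were all called higher, by 1.21 and 1.39 for the alpha chains and by 2.34 and 1.38 for the beta chains. Of the other two measured erythroid markers, Slc4a1 differed by 0.48 (adjusted p = 0.00364) and Epb42 by 0.08 (adjusted p = 0.707), and neither was called. The part of red cells in the value of Alas2 was not tested.

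**Figure D5:**
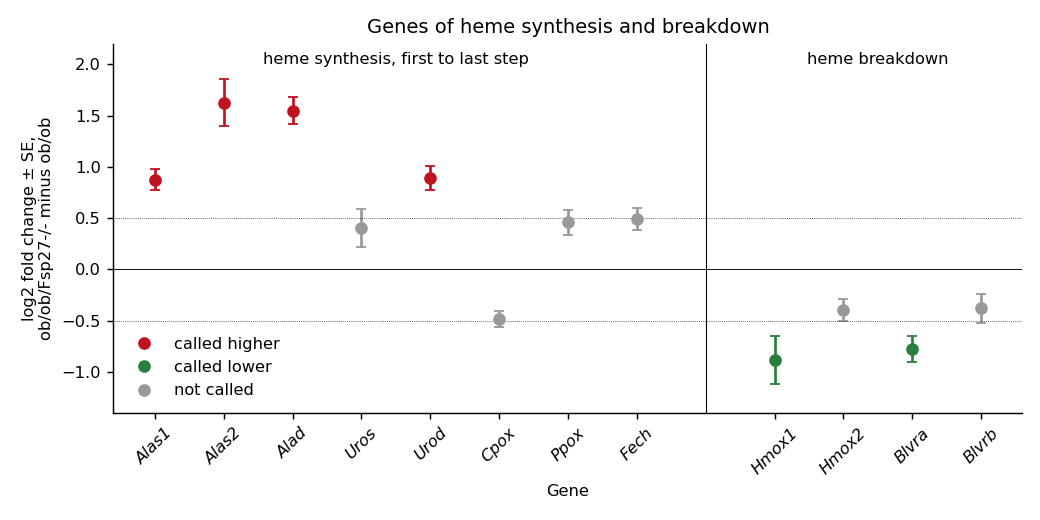
Log2 fold change ± SE (ob/ob/Fsp27-/- minus ob/ob, vertical axis) of the measured enzymes of heme synthesis, from the first to the last step, and of heme breakdown (horizontal axis), from limma with 3 arrays per genotype. Alas1, Alas2, Alad and Urod lie above the dotted fold threshold of 0.5, and the 4 breakdown genes lie below 0.

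The stretches before the starts of Alad and Urod are shown because both were called higher and both hold the E-box CACGTG, which many helix-loop-helix factors bind. It reads the same on both strands and always contains ACGTG. Of the 9 heme synthesis genes with a promoter window searched here, 3 hold CACGTG. The third is Uros, which was not called (log2 fold change 0.41, adjusted p = 0.156 from limma, but 0.58 and called without ob/ob/Fsp27-/- array 1). Alas1, Alas2 and Tmem14c, also called higher, hold no CACGTG in their windows. Of all promoters, 6.04% hold CACGTG. A link between the motif and the calls was not tested. Windows are from RefSeq, GRCm38.p6, with Alad at chr4:62520064-62520313 and Urod at chr4:116994414-116994663, both on the minus strand. Capitals mark the E-box, 105 to 100 bases before the start of Alad and 49 to 44 bases before that of Urod.
Alad: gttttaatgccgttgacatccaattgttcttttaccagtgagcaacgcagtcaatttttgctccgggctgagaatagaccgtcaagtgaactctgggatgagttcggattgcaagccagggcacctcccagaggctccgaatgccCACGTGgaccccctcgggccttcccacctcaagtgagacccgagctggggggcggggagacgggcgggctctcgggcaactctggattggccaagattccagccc
Urod: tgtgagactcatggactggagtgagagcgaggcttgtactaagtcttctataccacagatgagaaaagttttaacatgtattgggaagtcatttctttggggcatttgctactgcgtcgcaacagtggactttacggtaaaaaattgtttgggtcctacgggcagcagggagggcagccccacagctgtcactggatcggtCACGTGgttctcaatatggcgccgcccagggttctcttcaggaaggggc

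Genes that capture or move heme and hemoglobin split, with 1 of 9 called higher (11.1%) and 2 lower (22.2%). The shares of all genes were 9.58% and 10.8%. The list median was −0.046 and turned to 0.091 with housekeeping centring. Flvcr1, known as a heme exporter and choline transporter, read 9.78, 9.57 and 9.07 in ob/ob and 7.19, 7.52 and 7.54 in ob/ob/Fsp27-/- mice. Its log2 fold change of −2.06 (SE 0.192, adjusted p = 0.000382) was the largest fall among the 81 genes. A second Flvcr1 probeset was called lower too, at −1.22 (SE 0.173, adjusted p = 0.00217). Lrp1, the receptor for the complex of hemopexin and heme, fell by 1.28 on the log2 scale (SE 0.111, adjusted p = 0.000285). Flvcr2, a relative of Flvcr1, rose by 0.90 (SE 0.0937, adjusted p = 0.000577). It read 4.97, 5.09 and 5.24 in ob/ob and 5.96, 6.07 and 5.98 in ob/ob/Fsp27-/- mice. These values lay near or below the array medians of 6.02 to 6.10, where signal over background is low. Hp, the hemoglobin scavenger haptoglobin that adipocytes secrete, read 11.47, 12.03 and 12.22 in ob/ob and 12.43, 12.60 and 12.40 in ob/ob/Fsp27-/- mice. Its difference of 0.57 was not called (SE 0.188, adjusted p = 0.0602), but was without ob/ob array 3 (0.73, adjusted p = 0.0244), with housekeeping centring (0.71, adjusted p = 0.0312) and with filters at the 30th percentile (adjusted p = 0.0472) and the median (adjusted p = 0.0373).

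Of 4 regulators that respond to heme and oxidative stress, 2 were called lower, where 10.8% of all genes were. Bach1, the heme-sensing repressor of Hmox1, read 9.11, 8.75 and 8.63 in ob/ob and 7.77, 7.91 and 7.67 in ob/ob/Fsp27-/- mice, which gives a log2 fold change of −1.05 (SE 0.138, adjusted p = 0.00163). Nfe2l2, which encodes the activator Nrf2, fell by 0.77 on the log2 scale (SE 0.0712, adjusted p = 0.000360). Both lay lower in every ob/ob/Fsp27-/- array, as did 20.7% of all genes. Keap1, the adaptor that targets Nrf2 for degradation, differed by 0.21 (adjusted p = 0.105 from limma). It lay higher in every ob/ob/Fsp27-/- array, as did 25.3% of all genes. Spic, a factor of red pulp macrophages, differed by −0.27 (adjusted p = 0.333 from limma).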

How the data were processed

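RNA from GWAT was amplified in 2 rounds, per the labels, and hybridised to 6 Affymetrix arrays (GeneChip Mouse Gene 1.0 ST) with 3 for each genotype. The authors adjusted the background, normalized by quantiles and summarized probes with RMA, and deposited the result as log2 values. The version of RMA is not given in the sources used here. Quantile normalization removes any change in total RNA. Tests covered the 22961 of 34760 probesets with a gene symbol. For 21553 of them, each with 1 symbol, the Entrez number was found in RefSeq and its symbol there was used, whether or not it differed. Detection calls, on which the study filtered, rest on probe-level data and were not repeated.

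Genotypes, taken from the strain labels, were compared by limma 3.58.1 under R 4.3.3 (lmFit, eBayes, no covariates, Benjamini-Hochberg over tested probesets). The text names the 10 genes, genes of the iron and heme lists, markers, and the 3 genes closest to the largest rise and fall. The 10 genes and all lists were chosen with earlier results of these data known. Cidec and the 4 hemoglobin probesets lie outside the rule and were named after their values were seen. Lists were counted, with no set test. The procedure was tested on simulated data. Most changes set at the fold threshold were missed there, so a gene not called may still differ. Promoters came from RefSeq (GRCm38.p6), in which 6 of the 10 genes had an entry. Some genes of the wider lists were left out of the search by chromosome, but not out of the share over all promoters. Plots were made in matplotlib 3.10.9 under python 3.11.15.

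An array has no read depth, and 3 arrays per genotype limit the precision. Nothing in the labels says that the arrays are separate animals, so p-values measure the spread between these arrays. Alternatives changed the probesets (a filter at the median or at the 30th percentile, all probesets, the mean per gene), the scaling (array medians, cyclic loess, housekeeping genes), the fit (array weights, robust eBayes, limma-trend), the fold threshold, or the arrays kept.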

Additional observations from a re-analysis of the deposited data

How the results depend on the processing

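Among the 9 measured genes, the count called higher was 1 and fell to 0 at a fold threshold of 1 and without array 2 of either genotype, a setting chosen after seeing the data. The count called lower was 1, and was 2 with no fold threshold, 0 at a fold threshold of 1, 0 without array 2 of either genotype and from 0 to 2 when 1 array was left out. Over the 81 pathway genes, the 25 called higher became 9 at a fold threshold of 1 (all genes 1910 to 652) and 12 without array 2 of either genotype (all genes 1910 to 909), but 32 with housekeeping centring and 30 with no fold threshold, and the 7 called lower became 14 with no fold threshold and 3 at a fold threshold of 1. Leaving out single arrays gave 22 to 27 higher and 5 to 8 lower. Over all 17 alternatives, the log2 fold change of Trf was 0.50 to 0.79 and that of Hmox1 −1.05 to −0.62. Trf lost its call without array 2 of either genotype (0.71, adjusted p = 0.0663 from limma), as did Hmox1 (−0.95, adjusted p = 0.164). Steap4 turned to 0.025 with housekeeping centring, which moved the median of all genes from 0.058 to 0.19, and ranged from −0.23 to 0.042 when 1 array was left out. Hpx ranged from −0.26 to 0.72 when 1 array was left out. The causes were not tested. No paired analysis was possible because the labels give the arrays no shared replicate numbers. For Hpx, 4 of the 6 arrays, all but array 2 of each genotype, lay near the array medians of 6.02 to 6.10, where signal over background is low.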

Other observations

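Markers of some other cell types differed between the genotypes as well, where 9.58% of all genes were called higher and 10.8% lower. Genes of cycling cells were called lower in 7 of 7 measured cases, and their mean ranged from 7.47 to 7.71 in ob/ob and from 5.87 to 6.0 in ob/ob/Fsp27-/- mice. Mki67, a marker of dividing cells, differed by −2.63 on the log2 scale (SE 0.113, adjusted p = 2.87e-05 from limma). Of 7 stromal progenitor genes, 4 were called lower and 0 higher, and the collagen gene Col3a1 differed by −1.66 (SE 0.159, adjusted p = 0.000407). Of 7 endothelial genes, 3 were called higher, with Kdr, a receptor for vascular growth factor, at 1.40 (SE 0.134, adjusted p = 0.000407). Of 8 neutrophil genes, 1 (12.5%) was called higher, near the share of all genes, S100a8 at 0.83 (SE 0.198, adjusted p = 0.0181 from limma). The lists for T cells, B cells and epididymal epithelium held 0 calls in either direction. The mean value lay below the median tested probeset for all 8 neutrophil genes and all 6 measured epididymal genes. The same held for 4 of 5 measured T cell genes and 4 of 5 B cell genes. Signal is low there, so these counts say little about those cells. The mean of the B cell list was highest in ob/ob/Fsp27-/- array 3, as were 4 of its 5 measured genes, with list means of 5.35, 5.49 and 5.58 in ob/ob and 5.65, 6.30 and 6.76 in ob/ob/Fsp27-/- mice.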
